A study of Arabidopsis thaliana with 4 samples.

Results

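Expansins and xyloglucan endotransglucosylase/hydrolases (XTHs) are secreted proteins that let plant cell walls extend. The set described here holds 43 such genes, 21 expansins and 22 XTHs, chosen by gene family and TAIR10 locus, of 27444 nuclear coding genes in the annotation used. All 43 loci were found in it. FLAG-tagged protein on chromatin was mapped by ChIP-seq, the sequencing of DNA recovered by immunoprecipitation (here on FLAG-M2 agarose), in Arabidopsis thaliana seedlings grown for 10 days in continuous light on MS plates. The 4 libraries were FLAG-rga11 mutant and FLAG-RGA wild type, both in plants labelled sly1 dP, and a control for each. The control of the FLAG-rga11 line is labelled sly1 dP, and the control of the FLAG-RGA line RGA sly1 dQ. All groups thus carry a sly1 background. In the labels, rga11 is given as a mutant form of RGA. The promoter of the tagged protein and the number of transgenic lines are not given in the sources used here. With 1 library in each group, the lines could not be tested against each other and no value here has a replicate.

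DELLA proteins such as RGA hold growth back in the nucleus, acting on genes through the transcription factors they bind. Gibberellin has them degraded with the help of the F-box protein SLY1. The plant primary wall is a network of cellulose microfibrils coated and linked by xyloglucan within a pectin gel. Expansins loosen that network at acid pH without cutting it, while XTHs cut a xyloglucan chain and join the cut end to another chain or to water. Both families are classic outputs of gibberellin, brassinosteroid and auxin in elongating organs. The series title concerns the part of DELLA that holds it on chromatin through histone H2A, so the question for these genes is whether the mutant protein was still found at them.

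The authors' peak lists of the tagged lines were used, with 505 peaks for the mutant and 6116 for the wild type, in TAIR10 coordinates. Peak numbers run to 778 in the mutant list and to 7873 in the wild-type list, so not every called peak is in the lists. The fold quoted for a peak is the authors' ratio of ChIP over control at its summit, and −log10 q is their significance value. Both are used only to describe and rank peaks within a list, since the calls had different controls and coverage. The control that the mutant list names differs from the labels, so which library it was could not be settled, and each mutant value depends on it. Solving fold and p together gave the number of ChIP fragments at a summit, with its control level, for 99.8% of mutant and 99.98% of wild-type peaks, all peaks at the 43 genes among them. The control background was 7.21 fragments in the mutant call and 14.5 in the wild-type call. The median peak had 107 and 62 ChIP fragments over its summit in the mutant and wild-type lists. All mutant fragment counts are given before the scaling of the ChIP coverage by 0.470 that enters the mutant folds. They cannot be divided by the control level to give a fold, or set against wild-type counts. A gene was counted as marked when it held a summit or had one at most 1 kb from either end.

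In the mutant list 2 of the 43 genes were marked (4.65%), where 1.79% of all coding genes were. In the wild-type list 19 of the 43 were marked (44.2%), against 23.2% of all coding genes. No gene of the 43 was marked in both lists, and 22 were marked in neither. Over all coding genes 361 (1.32%) were marked in both, out of 491 marked in the mutant. With 2 mutant genes among the 43, nothing is read from the lack of a shared one. The mutant genes were XTH4 and XTH22, and no expansin. The wild-type genes were 11 of 21 expansins (52.4%) and 8 of 22 XTHs (36.4%). Among coding genes no shorter than the shortest of the 43 and no longer than the longest, 1.92% were marked in the mutant list and 24.1% in the wild-type list.

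The 43 are not the whole of either family. The annotation names another 27 expansin, expansin-like and XTH genes, and none of them was marked in the mutant list or in the wild-type list. Over all 70 named genes the shares were 2.86% in the mutant list and 27.1% in the wild-type list, close to the shares of all coding genes. For the expansins with expansin-like genes the wild-type share was then 29.7% (11 of 37), and for the XTHs 24.2% (8 of 33). These counts were made after the values of the 43 had been seen. The height of the wild-type share therefore rests on which family genes are listed.

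**Figure D1:**
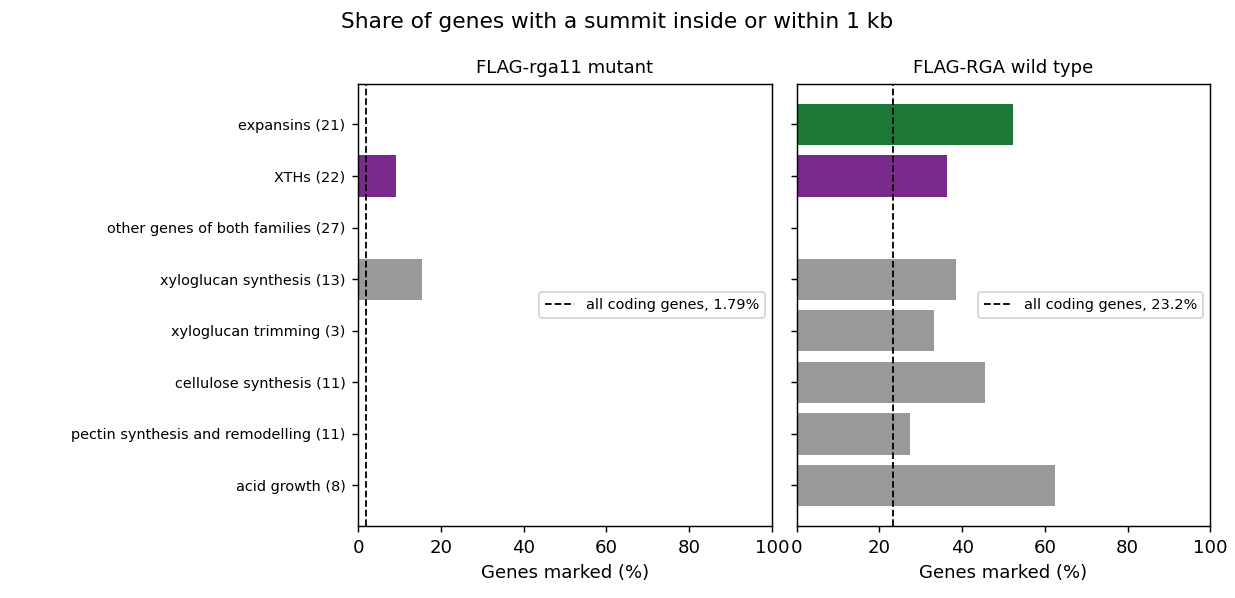
Percentage of genes with a summit inside or within 1 kb, for the mutant list (left) and the wild-type list (right), with the number of genes in each group in parentheses. Dashed lines give all coding genes, 1.79% and 23.2%. The expansin bar is empty in the mutant and at 52.4% in the wild type, and the other 27 genes of both families are at 0 in each.

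In the mutant line the clearest signal lay in XTH22 (AT5G57560), also known as TCH4, a gene known for its rapid induction by touch. The mutant list held 2 peaks there, at chr5:23307344-23307765 and chr5:23307971-23308207, with folds of 2.43 and 4.12. Their −log10 q values were 12.18 and 12.52. Both summits lay inside the gene, 533 and 567 bp from its nearer end. The peak with a fold of 4.12 ranked 19 of 505 in the mutant list, with 103 ChIP fragments over the summit and a control level of 1.53 times background. The other had 236 ChIP fragments, counted before scaling, and a control level of 6.24 times background. The wild-type list had no summit within 13938 bp of XTH22.

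XTH4 (AT2G06850), an XTH of growing tissues first described as the transferase EXGT-A1, had 1 mutant peak, at chr2:2765145-2765481. Its fold was 2.58 and its −log10 q 6.80, with the summit 388 bp inside the gene, 124 ChIP fragments and a control level of 3.05 times background. It ranked 261 of 505 by fold, in the middle of the list. The nearest wild-type summit was 93062 bp away, the farthest of any of the 43 genes. XTH4 and XTH22 were the nearest coding genes to their mutant summits, and no other coding gene lay within 1 kb.

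Scaled to the coverage of the wild-type call, all 505 mutant peaks would reach its lowest −log10 p of 5.05, so the scaling says nothing particular to these sites. The values would be 19.15 at XTH4 and 31.33 and 31.79 at XTH22.

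No expansin had a mutant summit within 1 kb or within 2 kb. Of all coding genes 1.79% had one within 1 kb and 2.64% within 2 kb, so the lack of one at 21 expansins says little. The nearest mutant summit to any expansin was 15575 bp from EXPA4, and the farthest nearest summit was 533399 bp from EXPA15. Among the 20 XTHs not marked in the mutant, XTH25 came nearest at 1099 bp, measured to the first XTH22 peak, since XTH25 and XTH22 are neighbours. XTH27 had a mutant summit 1764 bp away, at a peak with a fold of 2.87. That peak overlapped a wild-type peak with a fold of 1.94 whose summit was 1535 bp from XTH27, so the lists did coincide there, outside the 1 kb limit. For 38 of the 41 unmarked genes the nearest mutant summit was over 10 kb away, and the median of the 41 was 130067 bp. The other 27 genes of both families had a median of 128396 bp. Distances over all coding genes are not given here, so no absence is read from these.

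**Figure D2:**
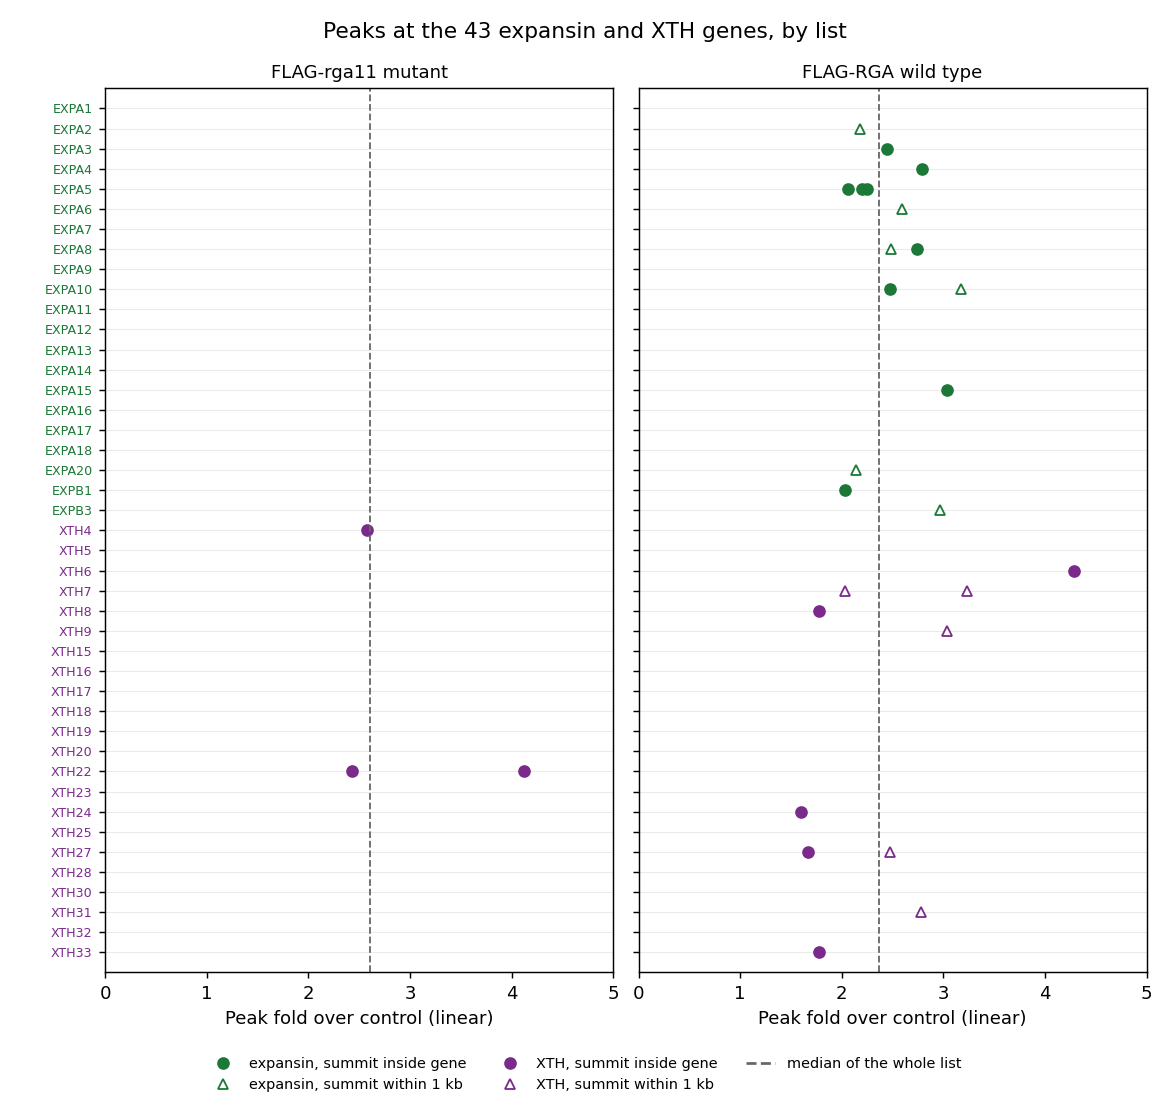
Fold over control (linear axis) of every peak with a summit inside (filled circles) or within 1 kb (open triangles) of the 43 genes, for the mutant list (left) and the wild-type list (right), expansins in green and XTHs in purple. The dashed line is the median of each whole list, 2.61 and 2.37. Mutant peaks stand at XTH4 and XTH22 alone, and wild-type peaks at another 19 of the 43 genes.

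In the wild-type line 15 peaks lay at the 11 marked expansins, with a median fold of 2.47 and a range of 2.03 to 3.17. All 6116 wild-type peaks had a median of 2.37. The highest expansin fold was at EXPA10 (AT1G26770), an α-expansin that promotes leaf and petiole growth. Its 2 peaks had summits 751 bp outside the gene (fold 3.17, −log10 q 9.52) and 697 bp inside it from the nearer end (fold 2.47, −log10 q 6.73). EXPA15 followed with a fold of 3.04 at a summit 573 bp inside. The β-expansin EXPB3 had a fold of 2.97 at 133 bp from the gene and the highest −log10 q of any expansin peak that counted, 12.52. Another peak near EXPB3 was stronger, with a fold of 3.12 and a −log10 q of 19.89. Its summit lay 1139 bp from the gene, beyond the limit, where AT4G28240 was nearer.

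EXPA8 (AT2G40610), a known DELLA target, had 3 wild-type peaks nearby. One summit lay 598 bp inside the gene (fold 2.74, −log10 q 9.17), one 306 bp outside (2.48), where AT2G40600 was nearer, and one 1737 bp outside (3.36), beyond the limit. EXPA5 (AT3G29030), known as a brassinosteroid-responsive expansin of growing shoots, had 3 separate summits inside the gene, the most of the 43. Their folds were 2.06, 2.25 and 2.20, each below the median of the list.

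EXPA4 had a fold of 2.79 at 489 bp inside and EXPA3 a fold of 2.44 at 762 bp inside. The gene AT2G39690 was also within 1 kb of the EXPA4 summit. EXPA6 had a fold of 2.59 at a summit 167 bp outside. The β-expansin EXPB1 had the weakest expansin peak by both measures, with a fold of 2.03 and a −log10 q of 3.98. EXPA2, known for its expression in germinating seeds, and EXPA20 were marked from outside, at 338 and 966 bp, with folds of 2.18 and 2.14. At both, other coding genes were nearer to the summit, and with each summit given to its nearest coding gene alone these 2 expansins dropped out.

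The 10 unmarked expansins had their nearest wild-type summit between 1119 bp (EXPA1) and 30442 bp (EXPA14). They were EXPA1, EXPA7, EXPA9, EXPA11, EXPA12, EXPA13, EXPA14, EXPA16, EXPA17 and EXPA18. Some summits lay near the 1 kb limit. Just inside were the summit of EXPA20 (966 bp) and 1 of the summits of XTH7 (965 bp), which has another at 815 bp. Just outside, besides the EXPB3 summit at 1139 bp, was the summit near EXPA1 (AT1G69530), an expansin of leaves and guard cells. It had a fold of 3.88 at 1119 bp and rank 361 of 6116, above every expansin peak inside the limit. That summit was nearer to AGL94. EXPA7 at 1583 bp (fold 2.32) and EXPA12 at 1939 bp (1.78) were also within 2 kb.

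**Figure D3:**
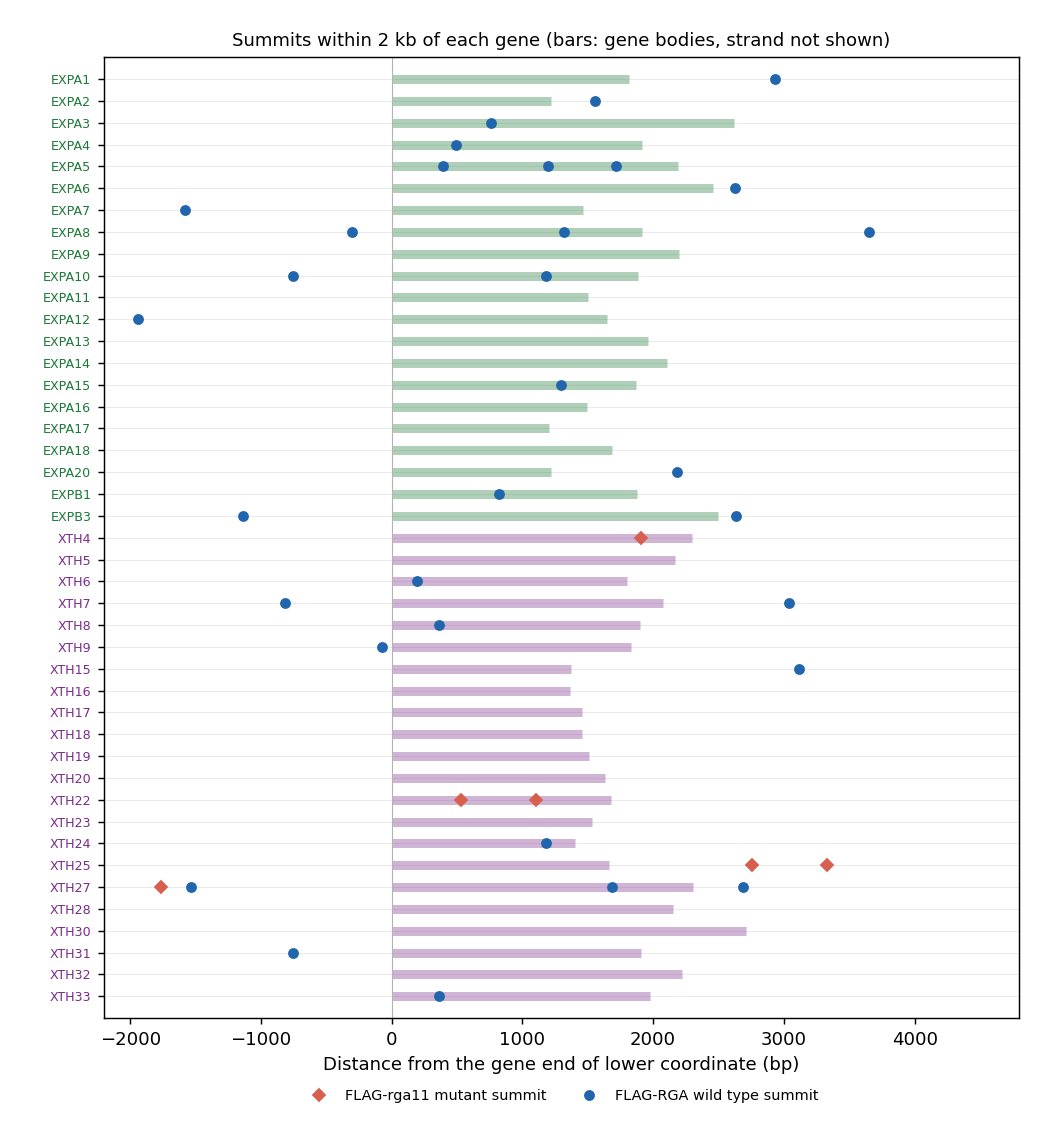
Summits within 2 kb of each of the 43 genes, in bp from the gene end of lower coordinate; bars are gene bodies drawn to length, and strand is not shown. Red diamonds are mutant summits and blue circles wild-type summits. Mutant summits lie in XTH4 and XTH22, beside XTH25 and 1764 bp from XTH27, while the 25 wild-type summits that count are spread over bodies and flanks of 19 genes.

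The 8 marked XTHs had 10 wild-type peaks with a wider range of folds, 1.60 to 4.29, and a median of 2.25. XTH6 (AT5G65730) had the strongest peak of all 43 genes, at chr5:26298856-26299006, with a fold of 4.29 and a −log10 q of 22.01. It ranked 220 of 6116, and its summit lay 197 bp inside the gene with 75 ChIP fragments. The gene NFS1, for a cysteine desulfurase, was also within 1 kb of it. XTH7 had 2 summits, 965 bp outside one end (fold 3.23, −log10 q 10.56) and 815 bp outside the other (2.03, 3.81). XTH9 (AT4G03210), known from shoot apices, had a fold of 3.04 and a −log10 q of 13.81. Its summit lay 77 bp from the gene, the nearest of all outside summits, and AT4G03205 was also within 1 kb of it.

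Lower folds were found at the other XTHs. XTH31, an enzyme known to act as a xyloglucan hydrolase, had a fold of 2.78 at 755 bp outside. XTH27 (AT2G01850), known for its role in leaf vein vessel cells, had folds of 2.47 at 384 bp outside, where EMB975 was nearer, and 1.67 at 623 bp inside. XTH8 had a fold of 1.78 with a −log10 q of 3.03, and XTH33 a fold of 1.78 with 4.71. XTH24, first named MERI5B for its meristem expression, had the lowest fold of the 25 peaks, 1.60 with a −log10 q of 3.45.

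Control signal, the denominator of the fold, was higher at the XTHs with low folds. A peak with a low fold can be called only where fragments and control are high, so the call itself favours this order. At XTH24, the inner XTH27 peak, XTH33 and XTH8 the control level was 4.42, 4.49, 3.54 and 2.38 times background, against 1.16 times at XTH6. Across the 25 member peaks the control level ran from 1.00 to 4.49 times background with a median of 1.63, the same as in the whole wild-type list. None of the 25 exceeded 5 times background, while 6.64% of all wild-type peaks did. In the mutant list 1 of the 3 member peaks did, the XTH22 peak with a fold of 2.43, as did 28.9% of all mutant peaks. With peaks over 5 times background left out, the genes marked numbered 2 in the mutant list and 19 in the wild-type list, as before. Of coding genes 1.37% and 22.0% were then marked.

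**Figure D4:**
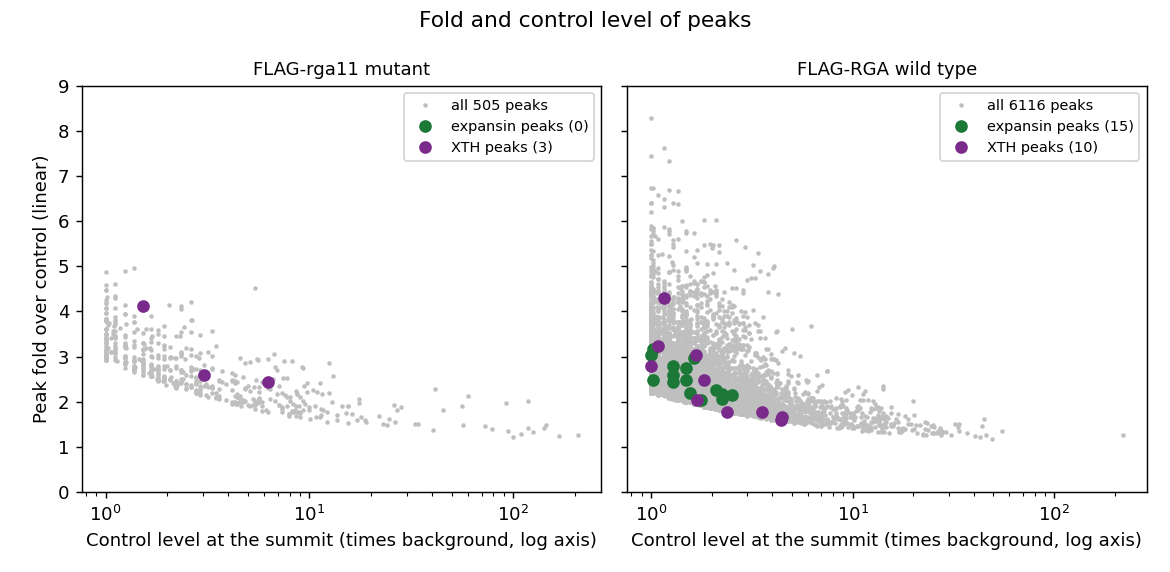
Fold over control (linear axis) against the control level at the summit in multiples of background (log axis), for the mutant list (left) and the wild-type list (right). Grey points are all peaks, green points peaks at expansins and purple points peaks at XTHs. Wild-type member peaks keep to control levels of 4.49 or less, and the 4 with the lowest folds, all at XTHs, have control levels of 2.38 or more.

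By XTH subgroup, 2 of 16 genes of group I/II were marked in the mutant list and 5 of 16 in the wild-type list. In group III, which holds XTH27 to XTH33, 0 of 6 were marked in the mutant list and 3 of 6 in the wild-type list. Over all coding genes these shares were 1.79% in the mutant and 23.2% in the wild type, so the 31.2% of group I/II in the wild type is near that of all coding genes, and group III is small. Of the 14 XTHs not marked in the wild type, 9 had no summit within 10 kb. These 14 were XTH4, XTH5, XTH15, XTH16, XTH17, XTH18, XTH19, XTH20, XTH22, XTH23, XTH25, XTH28, XTH30 and XTH32. XTH15, a gene also known as XTR7 that shade induces, had a strong wild-type summit 1742 bp away, with a fold of 3.36 and a −log10 q of 18.04. It was the nearest coding gene to that summit.

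XTH24, XTH18 and XTH19 lie side by side on chromosome 4, and the wild type marked XTH24 of the 3. XTH22 and XTH25 are likewise neighbours on chromosome 5, and the mutant marked XTH22 alone. Members of such clusters are not independent.

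The position of the summits was compared with all peaks at coding genes. All 3 mutant summits were inside, as were 89.0% of the mutant peaks that lay at coding genes. Of the 25 wild-type summits 14 (56.0%) were inside and 11 outside, where 74.4% of the wild-type peaks at coding genes were inside. The shares over all peaks count a summit inside any coding gene, those of the 43 only a summit inside the member itself. The member was the nearest coding gene to 21 of the 25 wild-type summits, and 7 of the 25 had another coding gene within 1 kb. The 56.0% and 74.4% are therefore not counted alike, and no shift to the flanks is read from them. Summits inside lay 197 to 995 bp from the nearer gene end with a median of 531 bp, and those outside at 77 to 966 bp. Counting only summits inside genes, 2 of 43 were marked in the mutant list, against 1.22% of coding genes, and 12 of 43 (27.9%) in the wild-type list, against 13.2%. Gene strand was not used, so starts were not told apart from ends. These shares carry no test.

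The calls differed in coverage, which limits what each could list. When the wild-type peaks were scaled to the coverage of the mutant call, 6 of the 25 still reached the lowest −log10 p of the mutant list, 6.03, as did 35.6% of all wild-type peaks. They lay at EXPA8 (6.40), EXPA10 (6.57), EXPB3 (7.96), XTH6 (13.23), XTH7 (7.14) and XTH9 (8.65), the values being the scaled −log10 p. These 6 genes are 14.0% of the 43, where 7.99% of coding genes stayed marked. For the other 13 of the 19 genes, the scaled value was below the lowest in the mutant list. That limit depends on the mutant peaks themselves, and the wild-type list reaches down to 5.05. The scaled values at EXPA4 (5.73), EXPA15 (5.66), EXPA20 (5.19) and XTH27 (5.87) lie between the 2 limits. Whether a peak of the wild-type strength could have been listed in the mutant at those 13 is therefore not settled. For the 6 it is not settled either, as the control level of the mutant call at those sites is not known. Not every called peak is in the mutant list, so no absence is read from the distances that follow. At the 6 the nearest mutant summit was 124510 bp from EXPA8, 146288 bp from EXPA10, 186391 bp from EXPB3, 154765 bp from XTH6, 103480 bp from XTH7 and 250782 bp from XTH9. Fragments were scaled and not redrawn, so these values carry no error.

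**Figure D5:**
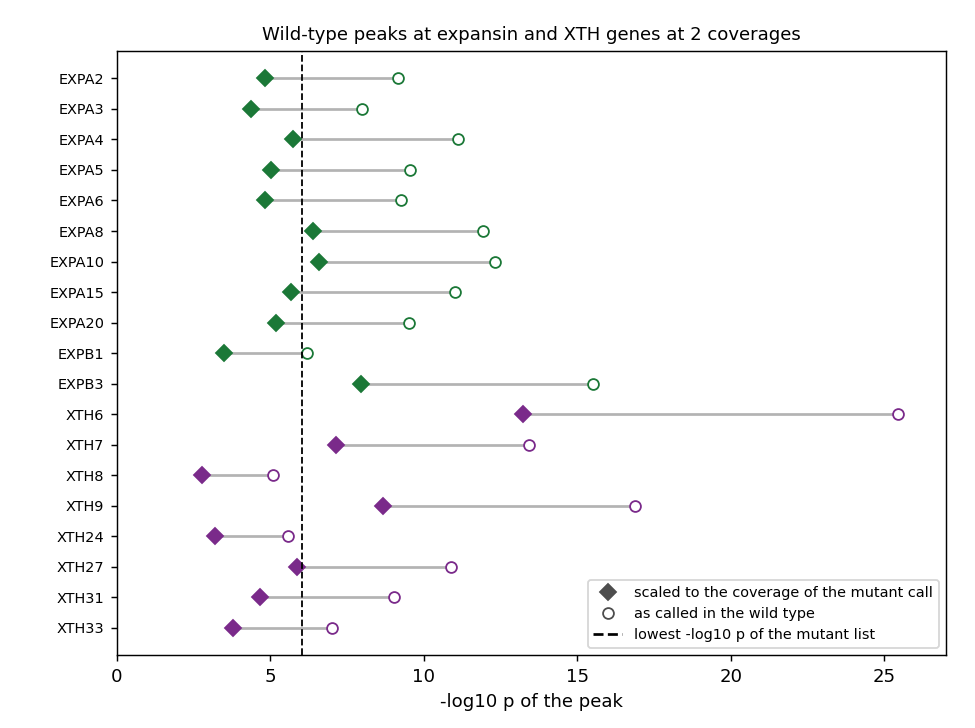
The −log10 p of the wild-type peak with the highest scaled value at each of the 19 marked genes, scaled to the coverage of the mutant call (diamonds) and as called in the wild type (open circles). The dashed line is the lowest −log10 p of the mutant list, 6.03. The peaks at EXPA8, EXPA10, EXPB3, XTH6, XTH7 and XTH9 stay above it.

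At a −log10 q of 10 or more 1 gene of the 43 (2.33%) was marked in the mutant list, XTH22, against 0.339% of coding genes. In the wild-type list there were 4 (9.30%), EXPB3, XTH6, XTH7 and XTH9, against 6.54% of coding genes. By family the wild-type shares were 4.76% of the expansins and 13.6% of the XTHs. With the wild-type list limited to as many peaks as the mutant list, by highest fold, 1 of the 43 genes was marked, against 1.63% of coding genes. Of the 25 wild-type peaks 5 ranked among the highest 20% of all folds, the number that share gives.

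Other genes of wall growth were counted in the same way. Of 46 genes in 5 lists, 2 were marked in the mutant list (4.35%) and 19 in the wild-type list (41.3%), against 1.79% and 23.2% of all coding genes. These shares are near those of the 43. The lists, like the 43, were chosen with earlier results of these data known, so nothing is read from that likeness. Both mutant genes belong to xyloglucan synthesis, CSLC4, which makes the glucan backbone (fold 2.73), and XXT5, which adds xylose to it (2.57). In the wild type 5 of 13 genes of xyloglucan synthesis were marked (38.5%), led by the galactosyltransferase gene XLT2 (5.03), XXT4 (2.40) and XXT3 (2.03). The summits at XLT2, XXT4 and XXT3 lay outside the genes, at 822, 261 and 961 bp. Whether another gene was nearer to a summit was not looked up for the wall lists. CSLC4 was marked in the wild type too, with a fold of 1.70. Of the enzymes that trim xyloglucan 0 of 3 were marked in the mutant and 1 of 3 in the wild type, the fucosidase gene AXY8 (1.93).

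Against the same 1.79% and 23.2% of coding genes, cellulose genes had 0 of 11 marked in the mutant and 5 of 11 (45.5%) in the wild type, with CESA3 (4.01), CESA2 (2.78) and CSI1 (2.67) highest. Those for pectin synthesis and remodelling had 0 of 11 in the mutant and 3 of 11 (27.3%) in the wild type, near the share of all coding genes. They were the pectin methylesterase genes PME5 (2.54) and PME3 (2.10) and AT1G48100 (1.89). The summits at CESA3 and PME5 lay outside the genes, at 527 and 819 bp. Acid growth genes had 0 of 8 in the mutant and 5 of 8 (62.5%) in the wild type. The highest of these were SAUR21 (2.65), which belongs to a family that keeps the proton pump active, the pump gene AHA1 (2.52) and APD7 (2.37), a clade D protein phosphatase gene. The summits at SAUR21 and APD7 lay 295 and 603 bp outside the genes. The SAUR genes of this list are neighbours, so their counts are not independent.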

How the data were processed

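Per the labels' protocols, chromatin of seedlings fixed with 1% formaldehyde for 20 min was incubated for 2 h. Tools named in the submitters' processing notes were MACS2 2.2.7.1, Bowtie2 2.4.5, deepTools 3.1.3 and Trimmomatic 0.39, with the TAIR10 build. The deposited peak lists give, per peak, the authors' fold (a ratio, with a pseudocount of 1 in the values), a −log10 p and a −log10 q. The deposited score, 10 times the −log10 q, and the summit offset were used to check and place summits. Peaks were called per line, as far as the labels say. The mutant file lists 1 summit without values, left out here.

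Fold = (c + 1)/(l + 1) and the Poisson p of c fragments over control level l were solved together; 99.8% of mutant and 99.98% of wild-type peaks fitted within 0.001 of the deposited −log10 p. The mutant ChIP coverage had been scaled by 0.470. The steps that recover fragments and mark genes were first tested on simulated data with known answers. Genes came from RefSeq on TAIR10.1, whose 5 nuclear chromosomes were taken to share TAIR10 coordinates; it was used for names and neighbours. Strand and sequence were not used here. Python 3.11.15, pandas 2.3.3 and SciPy 1.17.1 were used.

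All peaks at members are named, and the 3 highest folds of each wall list, by a rule set with the lists. The members and lists were chosen with earlier results of these data known. With 1 library per group, lists are described by counts beside all coding genes, and no test between lines or lists was run.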

Additional observations from a re-analysis of the deposited data

How the results depend on the processing

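The excess of the 43 genes over all coding genes was 2.86 percentage points in the mutant list and 21.0 in the wild-type list. For the 43 as listed it stayed above 0 in every setting run. It moved most in the wild type, to 2.76 points when −log10 q had to reach 10. With as many peaks as the mutant list, highest fold first (chosen after the data were seen), it was 0.693. The expansins alone had no excess in the mutant list in any setting. In the wild type they fell below all coding genes in both of these settings, at 4.76% against 6.54% and at 0 against 1.63%. At a −log10 q of 10 or more the genes marked were 1 in the mutant (1 XTH) and 4 in the wild type (1 expansin and 3 XTHs). With the equal number of peaks they were 1 in the wild type (0 expansins and 1 XTH). At a −log10 q of 5 or more, wild-type XTHs numbered 5 (22.7%), against 16.4% of coding genes. In the upper 50% by fold the counts were 1 in the mutant (1 XTH) and 12 in the wild type (7 expansins and 5 XTHs). Of coding genes 1.01% and 11.7% were marked in this way. Inside genes only the count was also 12 (7 and 5) in the wild type, against 13.2% of coding genes. Scaled to the mutant coverage, 6 wild-type genes were left (3 expansins and 3 XTHs), 14.0% of the 43 against 7.99% of coding genes. A flank of 2 kb gave 4 genes in the mutant (9.3%), all 4 XTHs, against 2.64% of coding genes. Of these, XTH25 entered only through the 2 peaks already counted at XTH22. Fewer peaks or a wider flank enter by construction in each of these settings. Control levels, the nearest gene, peak intervals and a 500 bp flank kept each count within 1.5 times. No paired analysis was possible because each group had 1 library.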

Other observations

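Among the 27 genes of the expansin and XTH families outside the 43, none had a summit within 1 kb in either list. They comprise 10 expansins, 6 expansin-like genes and 11 XTHs, picked by name after the values of the 43 had been seen. Their nearest mutant summit lay 1956 bp away at EXLB3 and 418592 bp at XTH3 at the extremes. The nearest wild-type summit ran from 1008 bp at XTH11, just beyond the limit, to 28595 bp at XTH26, with a median of 12614 bp. EXPA21 to EXPA26 lie in a row on chromosome 5, so they are not independent.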
